A study of Mus musculus with 31 samples.

Results

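The transcripts of 10 protein deacetylase genes were followed in single 2-cell mouse embryos: those of the histone deacetylases Hdac1, Hdac2, Hdac3, Hdac4, Hdac5, Hdac6 and Hdac8, and the sirtuins Sirt1, Sirt6 and Sirt7. They were taken by gene symbol, with earlier results of these data known, and are 10 of 20544 genes counted in 31 embryos. Of these embryos, 16 were control-generated and 15 were SER-generated, and each was sequenced as a library of its own at 32 h after insemination. SER stands for sperm energy restriction and recovery, in which sperm are kept without energy substrates until they stop swimming and then receive glucose and pyruvate again. In both groups the sperm came from C57BL/6J males of 12 to 14 weeks, 1 cauda epididymis being taken for each treatment, and the oocytes came from superovulated CD1 females of 8 to 10 weeks. Control sperm were held in complete medium for the same period, which lasted 15 to 45 min, and sperm of either treatment were left with the oocytes for 4 h. The labels do not say which males, females or fertilization dishes gave each embryo, so all p-values measure the spread between embryos, some of which may share parents or a dish.

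Deacetylases remove acetyl groups from lysines of histones and of other proteins, which reverses the action of the histone acetyltransferases and is generally linked to less active chromatin. The histone deacetylases use zinc, and are divided into class I enzymes (Hdac1, Hdac2, Hdac3 and Hdac8, largely nuclear), class IIa (Hdac4 and Hdac5, which shuttle between nucleus and cytoplasm) and class IIb (Hdac6, which acts on tubulin in the cytoplasm). The sirtuins use NAD+ instead, and Sirt1, Sirt6 and Sirt7 are the members found in the nucleus, Sirt7 mainly in the nucleolus. At the late 2-cell stage the mouse embryo replaces transcripts inherited from the oocyte with transcripts of its own genome, and histone acetylation is remodelled over the same time.

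Hdac1 needs a caution before its values are read, because most of its coding sequence has near-identical copies elsewhere in the genome. In GRCm38 the gene lies at chr4:129516104-129542713 on the minus strand. The processed pseudogene Gm10093, on the plus strand at chr17:78491582-78493025, was 99.4% identical to the Hdac1 transcript over 1444 aligned bases that lie in its coding part, with 9 substitutions. Below is the stretch of 60 bases that holds 5 of those 9 substitutions, bases 507 to 566 of the Hdac1 transcript and the matching bases 423 to 482 of the pseudogene, written 5′ to 3′ with the differing bases in capitals.
Hdac1: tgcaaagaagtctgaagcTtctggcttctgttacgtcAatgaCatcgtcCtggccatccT
Gm10093: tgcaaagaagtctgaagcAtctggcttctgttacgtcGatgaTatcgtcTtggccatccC
Counted from 1 at the left end, the substitutions from Hdac1 to the pseudogene are T19A, A38G, C43T, C50T and T60C. Reads of this study were 45 and 30 bases long, and 59.8% of all 45-base windows of the Hdac1 transcript, 1192 of 1994, were found unaltered in another annotated gene. The share was 63.0% for windows of 30 bases. For the other members at most 1.39% of the 45-base windows were found elsewhere. None of these copies is a gene of the count table. Of the reads from the start of a transcript, the authors kept those with a unique match, which drops reads that fit several places. For internal reads no such step is stated, so those that fit both places may have been dropped or assigned to Hdac1. Its level is uncertain to that extent in every embryo of both groups.

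Depth and identity of the libraries were examined before the members were compared. Counts on genes ranged from 532945 to 2085222 in control- and from 642321 to 3088396 in SER-generated embryos, and levels are given as CPM, the count scaled to the library's total. Of the 15 listed genes that mark the 2-cell stage, such as the Zscan4 family and Zfp352, 13 were in the table, and their summed level was at least 268 CPM in 29 embryos. The embryos labelled control replicate 4 and SER replicate 15 stood apart, with sums of 10.6 and 106 CPM. Their summed levels of 13 oocyte transcripts were 6431 and 7645 CPM, against a median of 2183 CPM and a highest value of 6712 CPM in the other 29. These were also the lowest embryos along the first principal component, which held 31.02% of the variance. The labels give no reason, and results that rest on this pair are given with and without it. Of 16 cumulus cell genes, 13 had a median of 0, Fshr and Foxl2 among them, and Amhr2 alone had a median of 114 CPM. The highest summed level, 1715 CPM in control replicate 5, was made up mostly of Cyp11a1 at 1423 CPM. In the same embryo Inhba (120 CPM), Inha (53.7 CPM), Vim (29.2 CPM), Star (21.5 CPM) and Fshr (4.61 CPM) also had their highest values. The remaining cumulus cell genes were highest in other embryos. Of 10 sperm genes, 8 had a median of 0, and their summed level was 80.3 to 370 CPM.

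SER- and control-generated embryos were first compared over all genes, to see whether transcripts of the deacetylases differ after the sperm treatment. None of the 10 members was called different at an adjusted p under 0.1 by edgeR's quasi-likelihood test, and the same was true of all 8571 genes that passed the filter on low counts (percent called, 0). At an unadjusted p under 0.05 the count was 0 of 10 members against 5.73% of tested genes. DESeq2 called 49 genes (0.572% of those tested), limma voom 848 (9.89%) and edgeR with 3 clusters of embryos estimated from the data 41 (0.478%), with no member among them. Apart from Hdac3, 9 members passed the filter. Hdac3's values come from the fit of all 17803 genes with a count, where 2.83% were called. Among those 9, the estimate was above 0 for 7 and below 0 for 2, and the median log2 fold change was 0.17, whereas 52.7% of all tested genes had estimates above 0 and the median was 0.02.

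**Figure D1:**
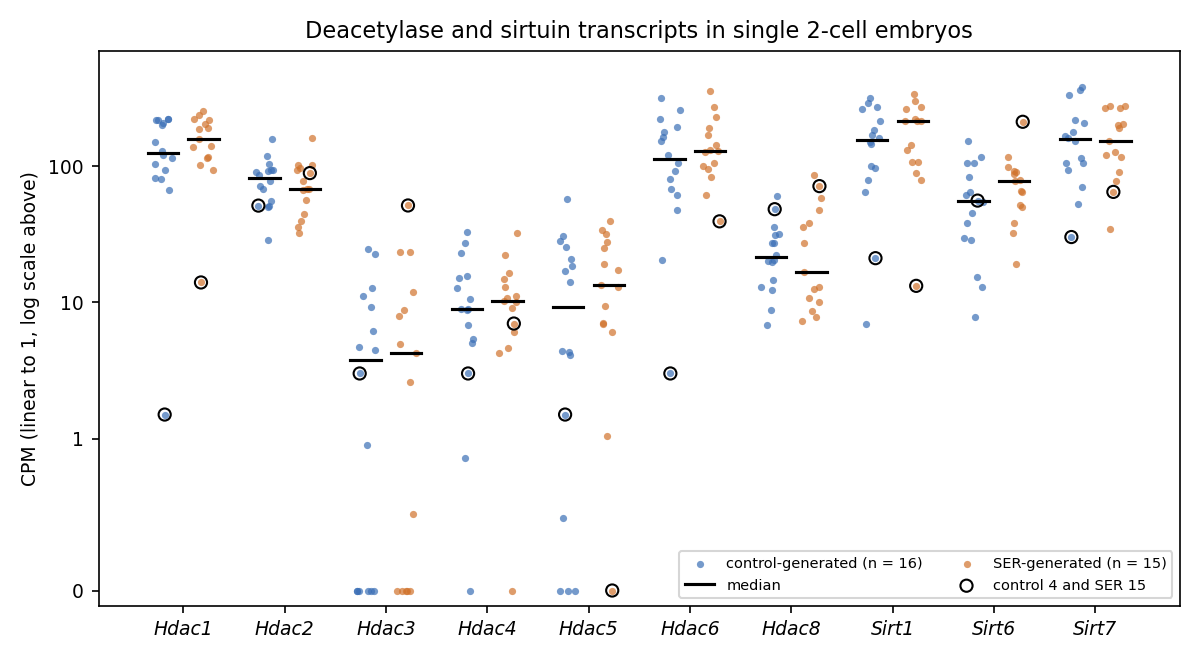
Level of each member in CPM (vertical axis, linear to 1 and logarithmic above) in every control- and SER-generated embryo, with a bar at each group's median and a separate marker for control replicate 4 and SER replicate 15. The groups overlap for all 10 members, and the pair of marked embryos lies at the bottom for Hdac1, at 1.51 and 14.0 CPM.

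Hdac1 and Hdac2 are the paired catalytic subunits of the Sin3, NuRD and CoREST complexes. Hdac1 was at 1.51 CPM in the lowest, 125 CPM in the median and 222 CPM in the highest control-generated embryo. In SER-generated embryos these values were 14.0, 158 and 252 CPM. The ranges overlapped almost entirely, and the lowest value of each group belonged to the embryo that stood apart, the next lowest being 66.3 CPM in control replicate 3 and 93.6 CPM in SER replicate 6. Means were 139 ± 68.0 CPM (SD, n = 16) and 159 ± 64.9 CPM (SD, n = 15). The log2 fold change of SER over control was 0.17 (SE 0.31, edgeR, Benjamini-Hochberg adjusted p = 0.976), with a 95% interval from -0.47 to 0.82. Without the pair it was 0.16.

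Hdac2, at chr10:36974544-37001889 on the plus strand, had values of 28.8, 81.6 and 159 CPM for the lowest, median and highest control-generated embryo. The SER-generated embryos gave 32.2, 68.4 and 160 CPM. Here the pair was not set apart, with 51.3 CPM in control replicate 4 and 88.8 CPM in SER replicate 15. Hdac2 was the most evenly expressed member, and its log2 fold change of -0.14 (SE 0.24, edgeR, Benjamini-Hochberg adjusted p = 0.975) had the narrowest interval, from -0.62 to 0.35. It was detected in all 31 embryos with at least 31 counts.

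The other class I enzymes were at lower levels. Hdac8, which works outside the large corepressor complexes and is known for deacetylating cohesin, ranged from 6.89 to 60.3 CPM around a median of 21.4 in control-generated embryos. In SER-generated embryos it ranged from 7.30 to 86.2 CPM around a median of 16.7. SER replicate 15 had the second highest level of its group, 71.3 CPM, and control replicate 4 the second highest of its own, 48.3 CPM. The log2 fold change was 0.24 (SE 0.38, edgeR, Benjamini-Hochberg adjusted p = 0.973), although the median was lower in the SER group than in the control group.

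Hdac3, the catalytic subunit of the NCoR complexes, was the member closest to the detection limit. It had no count in 6 control- and 5 SER-generated embryos, where a count of 0 allows up to 3 counts, or 0.971 to 5.63 CPM depending on the library. Its median was 3.77 CPM in the control and 4.27 CPM in the SER group, and the highest values were 24.6 and 51.4 CPM. The highest value of all was that of SER replicate 15, from 132 counts. The log2 fold change was 0.62 (SE 0.84, edgeR over all genes with a count, Benjamini-Hochberg adjusted p = 0.855) and was 0.063 without SER replicate 15 and -0.02 without both embryos that stood apart.

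Class IIa enzymes have weak activity of their own and are held in the cytoplasm by 14-3-3 proteins until they join Mef2 factors in the nucleus. Hdac4 was at 0 to 32.6 CPM in control- and 0 to 32.0 CPM in SER-generated embryos, with medians of 8.96 and 10.3 CPM and 1 embryo at 0 in each group. Its log2 fold change was 0.01, with a 95% interval from -0.96 to 0.97, and its sign changed under 14 of the 31 fits that left out a single embryo. Of its 15813 merged exon bases, 3536 are shared with Gm26720 on the opposite strand, and the strand setting of the counting is not given in the sources used here, so the reads of both cannot be told apart. Hdac5 was at 0 to 57.2 CPM in control- and 0 to 39.5 CPM in SER-generated embryos, with medians of 9.24 and 13.5 CPM and a log2 fold change of 0.27 (SE 0.63). Its 95% interval, -1.01 to 1.55, was the widest among the members that passed the filter.

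Hdac6, the tubulin deacetylase of class IIb, at chrX:7930120-7947889 on the minus strand, was at 3.02, 112 and 315 CPM in the lowest, median and highest control-generated embryo. The SER-generated embryos gave 39.3, 130 and 352 CPM. As with Hdac1, the lowest value of each group was that of control replicate 4 or SER replicate 15. Control replicate 3 was next lowest at 20.5 CPM, so the pair was not below all others. The log2 fold change was 0.17 (SE 0.34), and its interval from -0.53 to 0.88 covers both a decrease and an increase.

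Among the sirtuins, Sirt1, which deacetylates histones as well as factors such as p53, ranged from 6.99 CPM in control replicate 16 to 314 CPM in control replicate 1, with a control median of 157 CPM. In SER-generated embryos the lowest value was 13.2 CPM in replicate 15, the median 214 CPM and the highest 335 CPM. Apart from replicate 15 every SER-generated embryo held at least 79.4 CPM. The difference between the groups, a log2 fold change of 0.14 (SE 0.36, edgeR, Benjamini-Hochberg adjusted p = 0.981), was nevertheless within the spread, with a 95% interval from -0.59 to 0.88.

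Sirt6, which removes acetyl groups from histone H3 at telomeres and at sites of repair, had the smallest unadjusted p of all members, 0.288 by edgeR's test. Its levels were 7.80, 55.2 and 152 CPM in the lowest, median and highest control-generated embryo and 19.3, 78.2 and 211 CPM in the SER-generated embryos. In 10 of 15 SER-generated embryos the level lay above the control median. The highest value was that of SER replicate 15, and the log2 fold change of 0.36 (SE 0.33, edgeR, Benjamini-Hochberg adjusted p = 0.944) became 0.15 without the pair.

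Sirt7, an H3 deacetylase that also acts on ribosomal gene transcription, had the estimate nearest to 0 after Hdac4. Its levels were 30.2, 157 and 383 CPM in control- and 34.3, 153 and 277 CPM in SER-generated embryos. Means of 170 ± 107 CPM (SD, n = 16) and 165 ± 82.4 CPM (SD, n = 15) gave a log2 fold change of -0.06 (SE 0.30), with an interval from -0.66 to 0.55. The gene shares 124 exon bases with Mafg and 54 with Mir6936 on its own strand.

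**Figure D2:**
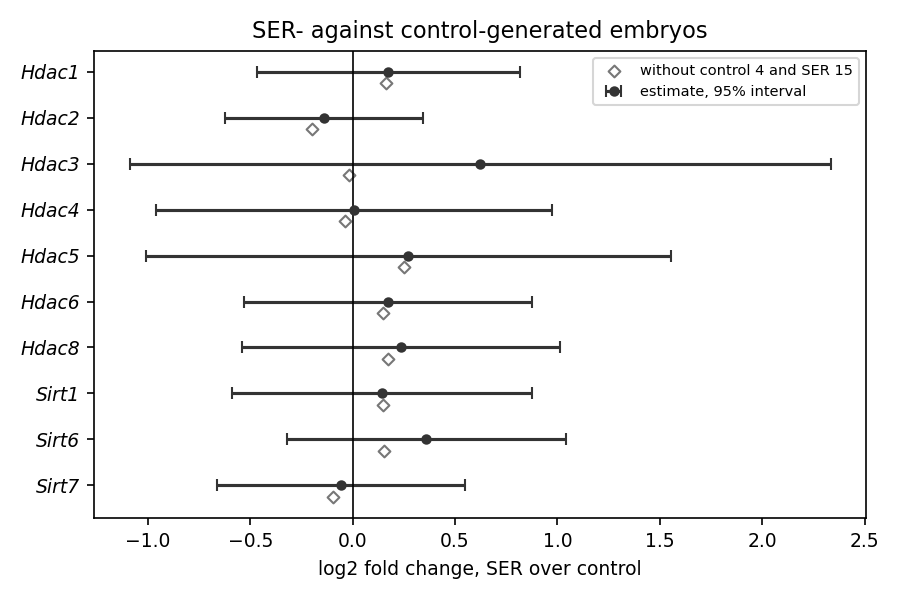
Log2 fold change of SER over control (horizontal axis) for each member, with bars for the 95% interval from edgeR, and open diamonds for the estimate without control replicate 4 and SER replicate 15. All 10 intervals cover 0, and leaving out the pair moved Hdac3 from 0.62 to -0.02 and Sirt6 from 0.36 to 0.15.

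Levels of different members were compared as CPM per kilobase of merged exon length, medians over all 31 embryos. Hdac1 came first with 40.8, followed by Sirt1 with 30.4, Sirt7 with 29.8, Sirt6 with 23.0, Hdac6 with 21.6 and Hdac2 with 17.3 CPM per kilobase. Below them were Hdac8 with 4.21, Hdac5 with 1.54, Hdac3 with 1.05 and Hdac4 with 0.64 CPM per kilobase. Between most neighbours in this order the difference was smaller than its spread, taken as the SD of the log2 ratio within embryos. Sirt1 exceeded Sirt7, the next in order, in 13 of 31 embryos, with a mean log2 ratio of -0.14. Between Hdac2 and Hdac8 the mean log2 ratio was 1.72 against an SD of 1.25, and Hdac2 was higher in 30 of 31 embryos. Between Hdac8 and Hdac5 the mean of 1.559 barely exceeded its SD of 1.557, and Hdac8 was higher in 26 of 31. An upper set of 6 thus stood above Hdac8. The step from Hdac8 to the lowest 3, which include both class IIa enzymes, was about as large as its spread. No single gene led in all embryos. Hdac1 was the highest member per kilobase in 13 embryos, Sirt1 in 6, Sirt6 and Sirt7 in 5 each, and Hdac2 and Hdac6 in 1 each.

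Within the class I pair the ratio of Hdac1 to Hdac2 per kilobase varied widely from embryo to embryo. It had a median of 2.22 and was above 1 in 25 of 31 embryos, 12 of 16 control- and 13 of 15 SER-generated. The lowest ratio, 0.0382, was that of control replicate 4 and the highest, 9.81, that of control replicate 2. In SER-generated embryos it ranged from 0.205 in replicate 15 to 8.88 in replicate 13.

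The pair of embryos that stood apart was low in some members and high in others. Hdac1 was the only member lower in both than in each of the other 29 embryos, where its lowest value was 66.3 CPM, whereas 13.2% of tested genes had this pattern. No member was higher in both than in all others, a pattern of 4.87% of tested genes. Sirt1 was at 21.1 CPM in control replicate 4 and 13.2 CPM in SER replicate 15, with 1 other embryo, control replicate 16, below both. Hdac8 was above 26 of the other 29 embryos in control replicate 4 and above 28 in SER replicate 15. Sirt6 and Hdac3 were above all 29 in SER replicate 15 only.

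Along the level of 2-cell markers over all embryos, Hdac1 had r = 0.86 and rho = 0.46 (n = 31). Group means were not removed for the correlations with markers, so a difference between the groups can enter them. Without the pair its r was 0.35 and its rho 0.34. Sirt1 had r = 0.61 and rho = 0.61 over all embryos, and r = 0.43 and rho = 0.53 without the pair, so the order of these members depended on the measure and on the pair. Hdac6 had r = 0.59 and rho = 0.08 over all embryos, and r = -0.11 and rho = -0.12 without the pair. For comparison, 14.0% of tested genes had an r above 0.5 with the 2-cell markers over all 31 embryos. Hdac2 had the highest correlation of the members with the oocyte transcripts, 0.49 with and 0.56 without the pair, while Sirt7 had -0.68 and -0.59 and Hdac6 -0.66 and -0.55. Hdac1 had -0.60 with and -0.37 without the pair, and Sirt1 -0.60 and -0.41. Over all 31 embryos, 13.1% of tested genes had an r above 0.5 with the oocyte transcripts and 21.0% an r below -0.5. Such shares were not computed without the pair. All these correlations describe embryos that share a composition of the library and unknown batches, and their part in them was not tested.

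**Figure D3:**
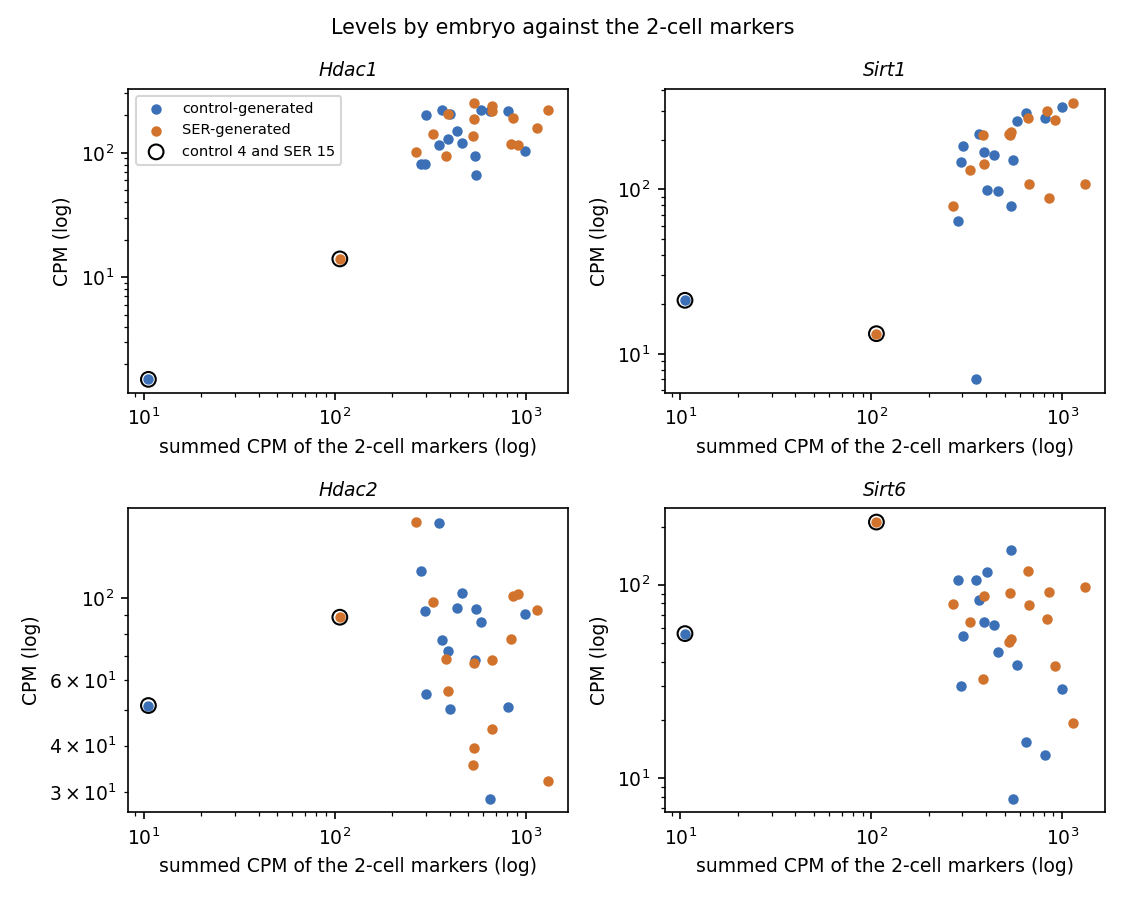
Level of members in CPM (vertical axes, logarithmic) against the summed CPM of the 2-cell markers (horizontal axes, logarithmic), 1 point per embryo. Control replicate 4 and SER replicate 15 lie far to the left, at marker sums of 10.6 and 106 CPM, and the other 29 embryos lie at 268 CPM or more.

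The members were next compared with each other across embryos, by the Pearson correlation of log2 CPM with group means removed. Over all 31 embryos, 4 of the 36 pairs of members that passed the filter had an r above 0.5. These were Hdac1 with Hdac6 (0.81), Hdac6 with Sirt7 (0.63), Hdac1 with Sirt7 (0.61) and Hdac1 with Sirt1 (0.57). Many other genes had r values as high. Of the other 8570 tested genes, 14.0% had a higher r with Hdac1 than Sirt1 did, 11.9% than Sirt7 and 2.39% than Hdac6. With Hdac6, 4.64% had a higher r than Sirt7. The pair of embryos carried part of these correlations. Without it Hdac1 with Hdac6 was the single pair above 0.5, at 0.57, and Hdac1 with Sirt1 was at 0.24. Hdac1 with Hdac6 had an r of 0.73 in the remaining control- and 0.24 in the remaining SER-generated embryos, a difference that was not tested.

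Some members were opposed to each other. Hdac1 and Hdac2 had an r of -0.26 over all embryos and -0.67 without the pair, with -0.69 among the 15 remaining control-generated and -0.65 among the 14 remaining SER-generated embryos. Over the same 29 embryos, 0.07% of the other 8570 tested genes had a lower r with Hdac1 than Hdac2 did. Over all 31 embryos that share was 26.4%. Hdac2 and Hdac6 were opposed as well, at -0.32 over all and -0.51 without the pair. Among the sirtuins, Sirt1 and Sirt6 had an r of -0.63 over all embryos and -0.58 without the pair. In the remaining embryos it was -0.58 in the control and -0.56 in the SER group. Of tested genes, 5.03% had a lower r with Sirt1 over all embryos and 4.35% without the pair. With the differences between 3 clusters of embryos estimated from the data removed, r over all 31 embryos was -0.47 for Hdac1 with Hdac2 and -0.40 for Sirt1 with Sirt6. One of these clusters held only the pair that stood apart, and the clusters are not the study's batches.

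**Figure D4:**
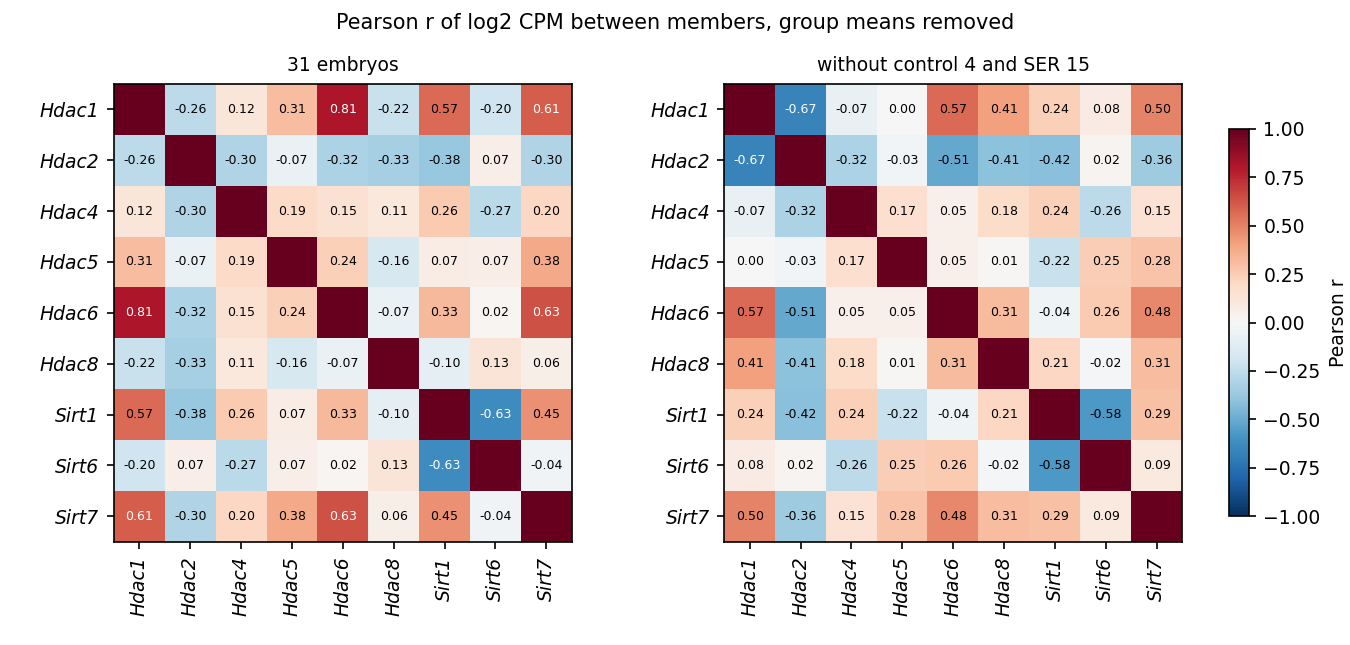
Pearson r of log2 CPM between the 9 members that passed the filter (rows and columns, colour from -1 to 1, group means removed), over all 31 embryos and without control replicate 4 and SER replicate 15. Hdac1 and Hdac6 share the strongest positive value, 0.81 and 0.57, and Hdac1 and Hdac2 go from -0.26 to -0.67.

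The upstream sequences of Hdac2 and Hdac6 are shown because these members lay on opposite sides of that relation and their 250 bases before the RefSeq start hold no annotated exon. They are from GRCm38.p6, Hdac2 from chr10:36974294-36974543 on the plus strand and Hdac6 from chrX:7947890-7948139 on the minus strand, written 5′ to 3′ with motif matches on either strand in capitals.
Hdac2: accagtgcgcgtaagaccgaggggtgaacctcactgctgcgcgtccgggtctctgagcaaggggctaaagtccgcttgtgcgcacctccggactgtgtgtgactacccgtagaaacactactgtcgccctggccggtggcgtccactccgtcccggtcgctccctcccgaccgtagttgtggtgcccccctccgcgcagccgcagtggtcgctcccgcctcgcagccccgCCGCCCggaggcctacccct
Hdac6: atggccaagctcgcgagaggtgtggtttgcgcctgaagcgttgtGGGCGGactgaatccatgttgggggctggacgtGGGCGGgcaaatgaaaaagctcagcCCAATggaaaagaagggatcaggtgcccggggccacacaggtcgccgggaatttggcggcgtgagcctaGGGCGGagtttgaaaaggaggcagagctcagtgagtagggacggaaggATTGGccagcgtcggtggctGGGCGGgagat
In all, 7 motifs were searched on both strands. Hdac6 held 4 matches to the GC box GGGCGG, the letters bound by Sp1, and 2 to the CCAAT box, whereas Hdac2 held 1 GC box, on the minus strand, and no CCAAT box. Of 32851 RefSeq promoter windows of the same length, 32.7% held a GC box and 33.8% a CCAAT box, so both are common. Neither window held the ETS core CCGGAAG, the E-box CACGTG, the CRE TGACGTCA, the palindromic NRF1 site or the TATA box TATAAA, which were found in 6.91%, 6.02%, 1.55%, 0.782% and 12.4% of windows. Among other members, Hdac4 held 4 GC boxes and 2 CCAAT boxes as Hdac6 did, Hdac5 held 1 and 2, Hdac8 0 and 2, and Sirt1 6 and 0. A match is a description of the letters only, and a link to the correlations was not tested. RefSeq windows were matched for 8 of the 10 members, not for Hdac1 or Hdac3.

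Each member was also set beside the other tested genes, and those with the highest r over 31 embryos were named. For Hdac1 these were Glul, the glutamine synthetase (0.96), G3bp1, a stress granule protein (0.95), and Ctsa, a lysosomal protease (0.94). Without the pair G3bp1 was first, at 0.81, and Glul was at 0.68. Hdac6 was most like Fkbp4 (0.85), Sugp1 (0.83) and G3bp1 (0.82), which stood at places 4, 19 and 30 without the pair. Sirt7 was most like Exosc6 (0.89), Stip1 (0.86) and Map1lc3a (0.84). Fkbp4 and Stip1 are both cochaperones of Hsp90. Sirt1 was most like Rbsn (0.89), Usp22 (0.89) and H2-Q6 (0.88), Usp22 being the deubiquitinase of the SAGA acetyltransferase complex. Sirt6 had Vac14 (0.83), Ccdc92 (0.82) and Rnf126 (0.81). For Hdac2 the likest were Auh (0.69), Fbxl4 (0.68) and Chchd3 (0.67), all 3 encoding mitochondrial proteins. For the less abundant members the likest were Noa1 (0.77), Terf2ip (0.76) and Gaa (0.73) for Hdac5, Pex19 (0.68), Abcf3 (0.67) and Rbm48 (0.61) for Hdac8, and Ctdspl (0.63) and Prrc2b (0.57) for Hdac4. Without the pair Exosc6, Vac14, Auh and Noa1 stayed first for their members. Rbsn was then at place 4, Pex19 at place 5, Gaa at place 19 and Rbm48 at place 20.

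The spread between embryos, as the SD of log2 CPM, was smaller in the SER group for 7 of the 9 members that passed the filter, and for 54.2% of all tested genes. For Hdac1 it was 1.45 in control- and 0.95 in SER-generated embryos, which became 0.56 and 0.45 without the pair. For Hdac6 the values were 1.46 and 0.77, and 0.97 and 0.66 without the pair. Sirt1 had 1.40 and 1.11, and without the pair 1.31 and 0.69, and Sirt6 had 1.12 and 0.81, then 1.15 and 0.67. The exceptions were Hdac2, with 0.58 and 0.62, and Hdac8, with 0.80 and 1.15. Without the pair the count was 6 of 9 members against 60.5% of tested genes, and with all libraries thinned to the smallest total 6 of 9 against 52.5%. No test of the spread was made. Within groups, Hdac2 had an SD of 0.60, higher than that of 10.0% of tested genes, whereas Hdac5 with 1.60 exceeded 90.9%.

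**Figure D5:**
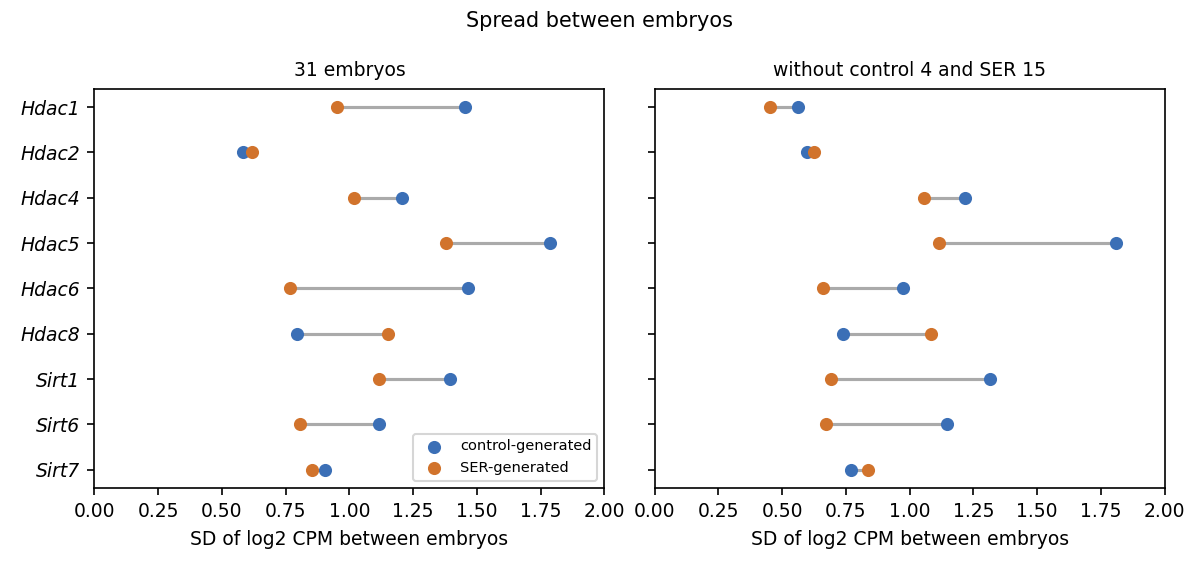
SD of log2 CPM between embryos (horizontal axis) for each member in control- and SER-generated embryos, over all 31 embryos and without control replicate 4 and SER replicate 15. The SD was smaller in the SER group for 7 of 9 members over all embryos and for 6 of 9 without the pair, against 54.2% and 60.5% of tested genes.

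The remaining deacetylases of the table were at low levels. Hdac9 had a median of 9.34, Hdac10 of 11.5, Sirt2 of 11.6 and Sirt4, a mitochondrial sirtuin, of 16.8 CPM over all embryos, and these 4 of 8 passed the filter. None was called, and 3 of the 4 estimates were below 0. Sirt4 had the smallest p, with 23.8 ± 15.6 CPM (SD, n = 16) in control- and 15.5 ± 9.61 CPM (SD, n = 15) in SER-generated embryos and a log2 fold change of -0.66 (SE 0.37, edgeR, Benjamini-Hochberg adjusted p = 0.869). Sirt3 and Sirt5 had medians of 5.06 and 6.62 CPM, and Hdac7 and Hdac11 were at 0 in 20 and 28 of 31 embryos. Without the filter Hdac11 was called (edgeR, Benjamini-Hochberg adjusted p = 0.0641), from 14 counts in 3 control-generated embryos and none in the SER group.

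Deacetylases of class I act as parts of corepressor complexes, and the genes of these complexes were examined as fixed lists. In all, 99 other genes from the lists of complexes, partners, substrates and opposing enzymes were tested. By edgeR's test none was called and 4 had an unadjusted p under 0.05, against 5.73% of all tested genes. With limma voom 10 of the 99 were called, Rbbp4 and Mta2 included, against 9.89% of all tested genes. With the estimated clusters edgeR called 1, Mta2, against 0.478% of all tested genes. For the Sin3 complex, 9 of 15 tested genes had estimates above 0 the median log2 fold change being 0.02, and for NuRD 7 of 11 with a median of 0.13. Gatad2a, a NuRD subunit, was at 283 ± 91.8 CPM (SD, n = 16) in control- and 406 ± 181 CPM (SD, n = 15) in SER-generated embryos, a log2 fold change of 0.49 (SE 0.21). The next smallest p of NuRD were those of Mta2 and of the histone-binding Rbbp4, which is also in the Sin3 list, with log2 fold changes of 0.70 (SE 0.37) and 0.48 (SE 0.26), followed by Mta3 with 0.27 (SE 0.22). In the Sin3 list Rbbp4 was followed by Ing2 (-0.53), Sin3b (-0.35) and Sap30l (-0.25). For the CoREST, MiDAC and MIER complexes, 9 of 14 estimates were above 0 with a median of 0.23, led by Zmym2 (0.42), Elmsan1 (-0.63), Rcor1 (0.40) and the demethylase Kdm1a (0.49).

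The NCoR complexes, in which Hdac3 is the enzyme, held the listed gene with the smallest p. Tbl1x, a WD40 subunit of these complexes, was at 7.45 ± 8.84 CPM (SD, n = 16) in control- and 32.2 ± 29.1 CPM (SD, n = 15) in SER-generated embryos. Its log2 fold change of 2.03 (SE 0.67, edgeR, Benjamini-Hochberg adjusted p = 0.485) did not pass the threshold, and it was 2.07 without the pair. Of the other tested genes of the list, Ncor1 (0.30), Gps2 (0.32) and Tbl1xr1 (-0.11) had smaller estimates. Among the partners of class IIa enzymes, 6 of 9 estimates were below 0. The 14-3-3 genes Ywhab and Ywhaz had log2 fold changes of 0.62 (SE 0.26) and -0.34 (SE 0.20), Sfn 0.72 (SE 0.47) and Ywhah 0.18 (SE 0.26).

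For the sirtuins, genes of NAD synthesis and use are those that supply or compete for the cosubstrate. Of 17 listed genes, 7 passed the filter, 4 with estimates above 0 and a median of 0.07. Parp1, which consumes NAD in DNA repair, had a log2 fold change of 0.50 (SE 0.27), Nadk 0.44 (SE 0.25), Parp2 0.27 (SE 0.30) and Nmnat2 -0.28 (SE 0.48). On the opposing side, 11 of 14 histone acetyltransferase genes had estimates above 0 with a median of 0.20, and those with the smallest p were Kat5 (0.81, SE 0.39), Kat7 (0.48, SE 0.25), Taf1 (0.53, SE 0.32) and Ep300 (0.43, SE 0.30). Of 22 genes for readers of acetylated lysine, 15 had estimates above 0 with a median of 0.19, and Yeats4 (-0.33, SE 0.17), Brpf3 (0.45, SE 0.27), Cecr2 (0.27, SE 0.17) and Baz1a (0.44, SE 0.29) had the smallest p. No gene of these lists passed the threshold in edgeR's test, while limma voom, with 9.89% of all tested genes called, had Kat7, Taf1 and Parp2 among its calls, and each list's share of positive estimates stands beside the 52.7% of all tested genes.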

How the data were processed

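Single-embryo RNA was sequenced by the Smart-seq3 protocol from 16 control- and 15 SER-generated 2-cell embryos. The deposited values are whole-number counts per gene symbol, without normalization. The authors aligned reads with STAR and counted with featureCounts. For reads from the start of a transcript they kept unique matches and removed duplicates with a molecular identifier. For internal reads they removed duplicates with Picard. The labels name mm10, and tool versions and the strand setting are not given in the sources used here. The study corrected for batches, which the labels do not name for each embryo, so no batch term was used.

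The comparison of the groups used TMM normalization and the quasi-likelihood test of edgeR 4.0.16 under R 4.3.3, without covariates, on the 8571 genes kept by filterByExpr (minimum count 10, minimum total 15), with Benjamini-Hochberg adjustment and a threshold of 0.1. Intervals use the t quantile on 29 residual degrees of freedom. Log2 CPM for SD and r used a prior count of 2, and ratios of levels per kilobase an offset of 0.5. The GENCODE vM21 annotation of GRCm38 gave exon lengths and positions. Windows of 45 and 30 bases, the read lengths, were searched in all its transcripts. No libraries were identical, and the fit was tested on simulated data. The depth of 532945 to 3088396 counts limits the low members, and intervals for counts of 0 cover counting error only, since internal reads carry no molecular identifier.

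The members and lists were chosen with earlier results of these data known. Named genes are the members, the 3 genes with the highest r to each member, up to 4 genes of each list by p, and listed genes past the threshold. Some genes that this rule names are not reported here. Alternatives were DESeq2 1.42.0 and its size factors, limma voom 3.58.1 with quality weights, no filter, a filter of 10 counts in 15 embryos, library size as a covariate, 3 clusters of embryos estimated from 1000 variable genes, the replicate number as a block, libraries thinned to 532945 counts, the longest transcript as length, and leaving out each embryo. Leaving out control replicate 4 and SER replicate 15 together was chosen after seeing the data.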

Additional observations from a re-analysis of the deposited data

How the results depend on the processing

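No member passed the threshold under any of the alternatives that were run. The number of genes called went from 0 to 41 with the estimated clusters, 49 with DESeq2, 848 with limma voom and 504 without the filter, and stayed at 0 when any 1 embryo was left out. Of 96 log2 fold changes of members under other settings, 81 kept their sign and 15 did not. Without both embryos that stood apart, Hdac3 was at -0.018 and Hdac4 at -0.036. With limma voom, Hdac3 was at -0.38, Hdac4 at -0.012, Hdac5 at -0.078, Hdac8 at -0.16 and Sirt7 at 0.034. With library size as a covariate, Hdac6 was at -0.011 and Hdac8 at -0.063, with DESeq2 Hdac4 was at -0.0056, with its size factors at -0.011, and with the clusters Sirt7 was at 0.051. The cause of these shifts was not tested. Leaving out 1 embryo at a time gave -0.19 to 0.18 for Hdac4 and -0.15 to 0.071 for Sirt7. DESeq2 gave no adjusted p for Hdac3, Hdac4 and Hdac5. Hdac3 had no value under the stricter filter, nor Hdac4 and Hdac5 with thinned libraries.

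Same-numbered embryos of both groups were checked for pairing. Their correlations ran from -0.37 to 0.49 with a median of 0.11, and 8 of 15 pairs were over 0.1. Of the SER-generated embryos, 2 correlated best with their own number. The labels do not say whether same-numbered embryos share a male, a dish or a batch, and these correlations cannot settle it. With the replicate number as a block 0 of 8361 genes were called, and Hdac3 was at -0.26, Hdac4 at -0.10 and Hdac8 at -0.13.

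With the longest transcript as length, 6 of 10 members kept their place in the order. With clusters removed 1 pair of members had an r above 0.5, and without both embryos that stood apart 1 pair did. Without the filter 1 gene of the lists was called, Hdac11. Of the 99 tested listed genes other than members, limma voom called 10, against 9.89% of all tested genes. They were Rbbp4, Mta2, Mier3, Kat7, Taf1 and Parp2 with higher and Brd7, Mllt3, Ywhag and Ywhaz with lower estimates in the SER group. With the clusters edgeR called Mta2, against 0.478% of all tested genes, and DESeq2 called none.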
